A study of Rattus norvegicus with 15 samples.

Results

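The developmental change of the embryonic cortex under a maternal high-fat diet (HFD) was followed here between E14.5 and E16.5 (E, embryonic day). The comparison took 4 of the 15 RNA sequencing libraries of the series, namely 2 E16.5 HFD and 2 E14.5 HFD libraries, across all genes. Each library came from frontal lobe cortices of Wistar rat embryos, pooled over 1 litter per the study's methods, and RNA depleted of ribosomal RNA was sequenced. The mothers of the HFD embryos were fed a diet that drew 60% of its calories from fat, starting before mating and kept up in gestation, and had become obese, and the sires were on chow. No group carried a genetic change. Beside them stood 3 E16.5 control and 3 E14.5 control libraries from mothers on normal chow, and 2 E18.5 HFD libraries. The diet was given to the mother, so it reached every embryonic tissue and not the cortex alone.

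In the rodent cortex these days fall in the middle of neurogenesis. Radial glia, the stem cells along the ventricle, divide into intermediate progenitors and neurons. New excitatory neurons climb outward and settle in layers, deep layers first, while inhibitory neurons migrate in from the ventral forebrain. Neurons then extend axons under the control of guidance receptors, switch their splicing and chromatin factors to neuronal forms, and begin to make synaptic proteins.

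In all, 15354 genes passed the filter on low counts. Values are given as CPM, the count scaled to a common library total, and differences as log2 fold changes with standard errors (SE) from the fit, positive where E16.5 was higher. A gene was called where the adjusted p of edgeR's quasi-likelihood test was under 0.05. At E16.5, 2459 genes (16.02% of those tested) were higher and 2225 genes (14.49%) lower than at E14.5 under HFD, the shares against which list counts are read. Of the called genes, 1327 higher and 1378 lower ones differed by at least 1 log2 unit. Without E14.5 HFD replicate 2 the counts were 1070 higher and 1186 lower genes. Without E16.5 HFD replicate 1 the lower genes numbered 1428, and without E16.5 HFD replicate 2 they numbered 1406.

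The 4 libraries held 7694343 and 8170996 counts at E16.5, and 8461070 and 9030629 counts at E14.5. The library labelled E18.5 control replicate 1 went against its label and was left out of the fit. On the scale of all 15 libraries it held 5.99 CPM of Neurod6 and 74.0 CPM of Twist1, inside the ranges of the E14.5 libraries (1.26 to 21.6 CPM and 29.0 to 106 CPM) and outside those of the other E18.5 libraries (186 to 233 CPM and 1.40 to 2.29 CPM). With all 15 libraries the calls were 1561 higher and 1024 lower.

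Markers of tissue outside the cortex moved with the stage. Twist1, which marks mesenchyme of the head, was at 1.499 and 1.66 CPM in the E16.5 HFD libraries, against 93.4 and 108 CPM in the E14.5 HFD libraries (log2 fold change -5.98 ± 0.43). The E14.5 libraries were thus rich in a connective tissue gene, with no overlap between the stages. Such separation was common. Both E16.5 HFD libraries lay below both E14.5 HFD libraries for 34.8% of all tested genes and above them for 33.2%. Over the whole list of 26 tested head mesenchyme and meninges genes, 23 fell and none rose. Its summed level was 710 to 792 CPM at E16.5, against 5430 to 5865 CPM at E14.5. For lens and eye genes, 15 of 19 fell and none rose, with summed levels of 23.9 to 31.4 CPM at E16.5, against 412 to 597 CPM at E14.5. The summed level of cortical excitatory neuron genes ran the other way, at 3269 to 3353 CPM at E16.5, against 882 to 1023 CPM at E14.5. A rise of a cortical gene in its cells and a larger share of cortex in the dissection cannot be told apart in these bulk libraries, nor can fewer cells of a type and less RNA per cell. With the mean log2 level of the mesenchyme list as a covariate, 0 genes were called higher and 0 lower, and 520 and 381 genes had an unadjusted p under 0.05. That score lay between 2.36 and 2.59 at E16.5, against 5.74 and 5.93 at E14.5, so it separated the stages as fully as the labels did.

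**Figure D1:**
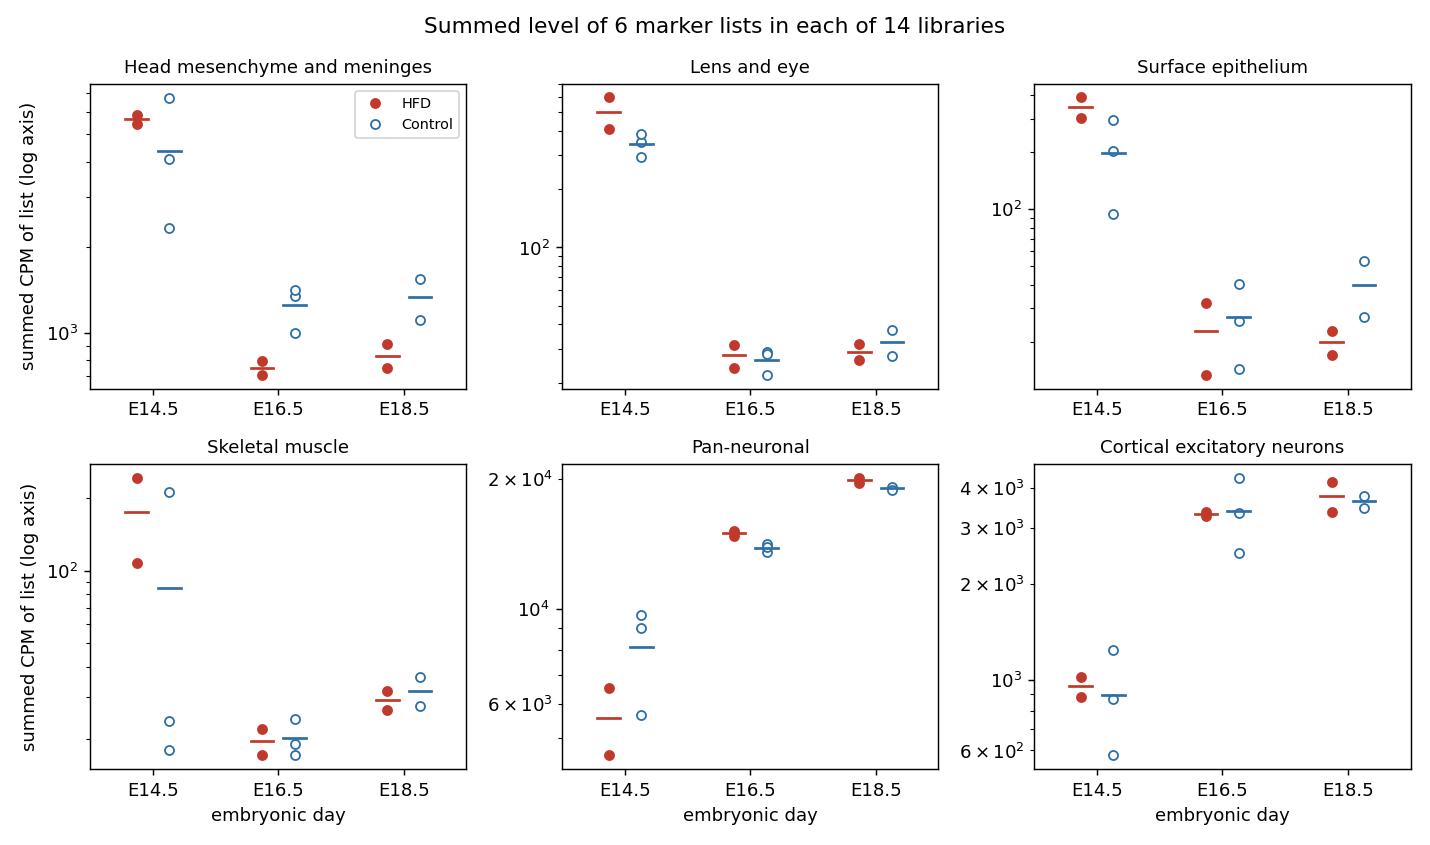
Summed CPM (log axis) of 6 marker lists in each library by embryonic day, HFD libraries filled and control libraries open, with bars at the group means. Lists of tissue outside the cortex lie far lower in the E16.5 HFD libraries than in the E14.5 HFD libraries (710 to 792 against 5430 to 5865 CPM for head mesenchyme), while both neuronal lists lie higher.

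The promoters of the genes that marked the 2 ends of this change are shown first, because their members moved together. The windows run from 250 bases before to 50 bases after the annotated start (RefSeq, build GRCr8), 5′ to 3′ on the strand of the gene. In Neurod6 and Neurod2, helix-loop-helix factors of cortical excitatory neurons that rose, capitals mark CAGATG on either strand, a form of E-box, the element that such factors bind. In the lens crystallin gene Cryaa, which fell, capitals mark TGCTGA on either strand, the half-site of the Maf factors.
Neurod6 (chr4:86180106-86180405, minus strand): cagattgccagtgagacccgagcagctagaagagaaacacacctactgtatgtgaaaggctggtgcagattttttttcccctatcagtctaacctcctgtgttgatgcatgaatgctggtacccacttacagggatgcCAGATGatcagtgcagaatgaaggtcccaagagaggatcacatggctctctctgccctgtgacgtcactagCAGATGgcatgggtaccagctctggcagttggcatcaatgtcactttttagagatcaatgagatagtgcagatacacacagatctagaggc
Neurod2 (chr10:83824228-83824527, minus strand): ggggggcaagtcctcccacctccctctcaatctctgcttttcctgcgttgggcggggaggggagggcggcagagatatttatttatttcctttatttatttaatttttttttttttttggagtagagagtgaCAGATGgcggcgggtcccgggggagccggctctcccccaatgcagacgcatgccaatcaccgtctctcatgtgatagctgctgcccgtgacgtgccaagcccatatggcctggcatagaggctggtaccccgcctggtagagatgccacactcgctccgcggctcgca
Cryaa (chr20:9784661-9784960, plus strand): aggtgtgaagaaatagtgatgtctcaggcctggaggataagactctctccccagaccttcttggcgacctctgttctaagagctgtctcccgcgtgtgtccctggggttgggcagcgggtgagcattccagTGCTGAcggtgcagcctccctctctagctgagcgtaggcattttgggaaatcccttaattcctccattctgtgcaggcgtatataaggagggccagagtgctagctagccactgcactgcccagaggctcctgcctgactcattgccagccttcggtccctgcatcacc
Neurod6 held 2 such E-boxes and Neurod2 held 1. CAGATG was found in 4 of the 12 cortical excitatory neuron promoters with a sequence (33.3%), in 11% of the 1765 promoters of genes higher at E16.5, and in 10.7% of the 10581 promoters of tested genes. TGCTGA was found in 9 of 17 lens and eye promoters (52.9%). It stood in 16.7% of the 1649 promoters of genes lower at E16.5, in 16.6% of those of genes higher, and in 15.6% of those of tested genes. The called genes as a whole therefore carried either motif about as often as all tested genes did. The motifs were chosen after the changes were known, and a match is a description of letters and not a binding site.

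The genes with the smallest p-values among those that rose, at a mean of at least 5 CPM, are given first. Unc5a (ENSRNOG00000059840), a receptor for the guidance cue netrin, was at 29.0 and 26.2 CPM at E16.5, against 5.10 and 3.24 CPM at E14.5, a log2 fold change of 2.73 ± 0.24 (adjusted p = 4.9e-05). Dpysl5, a collapsin response mediator that shapes growth cones and dendrites, was at 711 and 690 CPM, against 257 and 184 CPM (1.67 ± 0.18). Plppr4, a membrane protein of glutamatergic synapses, was at 8.74 and 11.9 CPM, against 1.19 and 0.864 CPM (3.32 ± 0.36). In each of these genes both E16.5 libraries lay well above both E14.5 libraries. Olfm2, a secreted olfactomedin, reached 39.2 and 40.0 CPM, against 13.04 and 11.7 CPM (1.68 ± 0.17). Brinp2, a neural inhibitor of cell cycling, was at 45.5 and 52.3 CPM, against 10.3 and 9.51 CPM (2.30 ± 0.25). Rprm, which arrests cells in G2, was at 57.7 and 55.9 CPM, against 19.4 and 14.04 CPM (1.76 ± 0.19). The remaining genes of this group were Ankrd6, Rtn2, Rnf165, Klhl25, MARCH4, Syn1, Rnf208 and Chrna7, with log2 fold changes of 1.36 to 4.14.

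Next are large rises among genes with a mean of at least 20 CPM. Sla, an adaptor protein that damps receptor signalling, was at 21.5 and 38.7 CPM at E16.5, against 0.711 and 0.756 CPM at E14.5 (5.33 ± 0.76). Grin2b, the NMDA receptor subunit that dominates before birth, was at 96.9 and 127 CPM, against 8.77 and 3.46 CPM (4.20 ± 0.87, adjusted p = 0.0054, and 0.066 without E14.5 HFD replicate 2). Kcnq3, a subunit of the M-type potassium channel, was at 46.5 and 52.7 CPM, against 3.68 and 1.84 CPM (4.17 ± 0.65). Kcng1, a modifier subunit of potassium channels, and Tnr, a matrix protein of the nervous system, rose by 4.01 ± 0.54 and 3.61 ± 0.54. Ppp1r1b, known as DARPP-32, a target of dopamine signalling in the striatum, was at 21.5 and 25.2 CPM, against 1.90 and 1.19 CPM (3.92 ± 0.78).

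**Figure D2:**
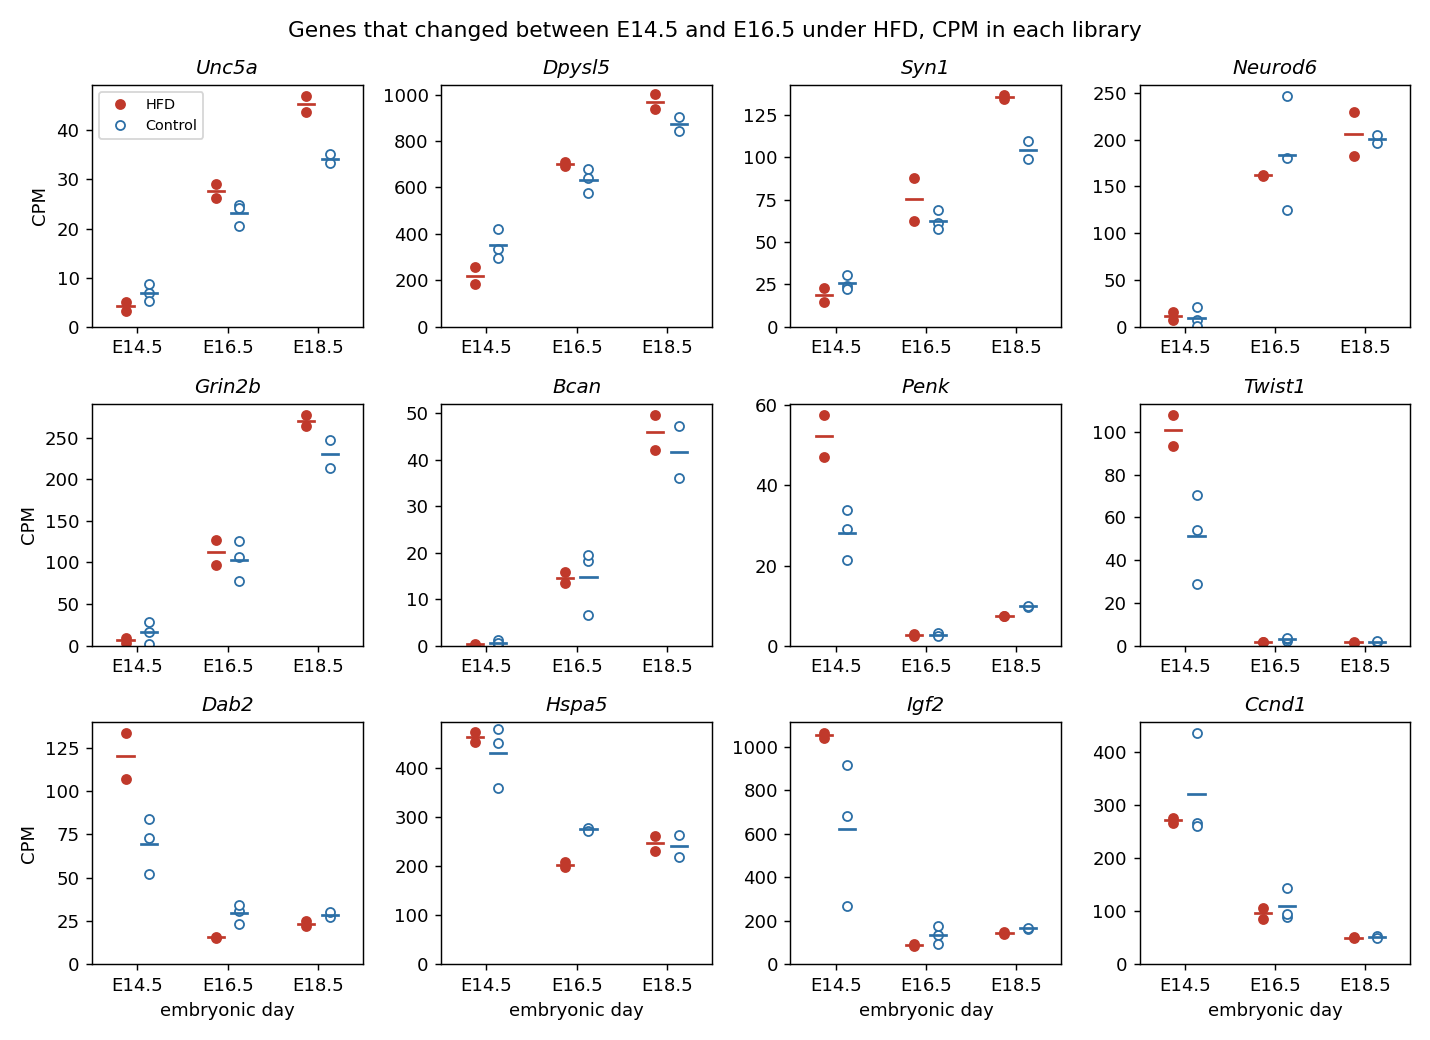
CPM of 12 genes in each library by embryonic day, HFD libraries filled and control libraries open, with bars at the group means and each axis starting at 0. Unc5a, Dpysl5, Syn1, Neurod6, Grin2b and Bcan lie higher in both E16.5 HFD libraries than in both E14.5 HFD libraries, and Penk, Twist1, Dab2, Hspa5, Igf2 and Ccnd1 lie lower.

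Genes of cortical excitatory neurons rose. Of 18 tested members, 17 rose and none fell, with a median log2 fold change of 1.70, against -0.01 over all genes. Neurod2, which drives the terminal steps of neuronal differentiation, was at 149 and 129 CPM at E16.5, against 10.3 and 5.51 CPM at E14.5 (4.14 ± 0.88). Neurod6 was at 163 and 161 CPM, against 16.4 and 7.13 CPM (3.79 ± 0.85). Slc17a7, the vesicular glutamate transporter VGLUT1, was at 44.0 and 46.9 CPM, against 6.28 and 4.54 CPM (3.07 ± 0.48). These 3 genes marked E16.5 with no overlap, as did all 2459 genes called higher. Tiam2, an activator of the small GTPase RAC, was at 251 and 303 CPM, against 34.9 and 41.3 CPM (2.86 ± 0.42). Zbtb18, a repressor needed for neuronal migration, was at 228 and 224 CPM, against 60.9 and 49.5 CPM (2.03 ± 0.25). Tbr1, the factor of deep layer neurons, was at 156 and 146 CPM, against 31.9 and 25.9 CPM (2.38 ± 0.54, adjusted p = 0.0077). Without E14.5 HFD replicate 2, the lower of the pair for Neurod2 and Neurod6, 9 members of the list were called in place of 17, and Neurod2, Neurod6 and Tbr1 were among those lost (adjusted p = 0.076, 0.088 and 0.078).

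Layer factors rose in both sets. Among 13 deep layer and subplate factors 7 rose and 3 fell (median 1.11; 4 and 1 without E14.5 HFD replicate 2, and 1 fell without E14.5 HFD replicate 1 or E16.5 HFD replicate 1), and among 12 upper layer factors 7 rose and 1 fell (median 1.17). Bcl11b, known as CTIP2 and needed for subcortical projections, was at 416 and 454 CPM at E16.5, against 145 and 131 CPM at E14.5 (1.65 ± 0.35). Sox5, which times the order of deep layer neurons, was at 167 and 163 CPM, against 59.4 and 53.7 CPM (1.55 ± 0.23). Lmo3 rose by 2.21 ± 0.29. Of the upper layer set, Cux2 was at 117 and 92.7 CPM, against 39.8 and 32.4 CPM (1.54 ± 0.26). Unc5d, a netrin receptor of migrating upper layer neurons, was at 53.6 and 60.7 CPM, against 14.3 and 13.1 CPM (2.06 ± 0.40), and the POU factors Pou3f3 and Pou3f1 rose by 1.24 ± 0.19 and 1.40 ± 0.28. The largest fall in the deep layer list was that of Ccn2, which marks subplate neurons and is widespread in connective tissue, at 5.996 and 4.98 CPM, against 23.6 and 36.1 CPM (-2.44 ± 0.27). Which of these tissues the fall came from was not tested.

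Intermediate progenitor genes rose in 10 of 13 cases and none fell (median 0.76), but 3 were called without E14.5 HFD replicate 2. Sstr2, a somatostatin receptor, was at 35.0 and 34.5 CPM at E16.5, against 9.37 and 7.78 CPM at E14.5 (2.02 ± 0.29). Hes6, which promotes differentiation against the Notch target HES1, was at 160 and 139 CPM, against 88.7 and 72.0 CPM (0.90 ± 0.19). Btg2, a marker of neurogenic divisions, and Mfng, a modifier of Notch ligand binding, rose by 0.67 ± 0.13 and 0.75 ± 0.15. Radial glia genes were mixed, with 6 of 22 rising, 3 falling and a median of 0.56, and between 3 and 10 rose when single libraries were left out (3 without either E14.5 HFD library, 10 without E14.5 control replicate 1 or 3). Those that fell numbered 1 without E14.5 HFD replicate 2 or E16.5 HFD replicate 2. Ptprz1, a receptor phosphatase of radial glia, was at 472 and 460 CPM, against 217 and 202 CPM (1.15 ± 0.25). Notch1 rose to 551 and 433 CPM, against 331 and 300 CPM (0.64 ± 0.13). Vim, the intermediate filament vimentin, which connective tissue shares, was at 764 and 644 CPM, against 1154 and 1215 CPM (-0.75 ± 0.12). The part of connective tissue in that fall was not tested. Pax6, the progenitor factor measured as a protein in the study, was at 66.6 and 55.5 CPM, against 49.7 and 38.1 CPM (0.48 ± 0.36, adjusted p = 0.35).

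Cell cycle genes moved little in CPM, but mostly downward. Log2 fold changes were negative for 23 of 25 tested members and for 25 of 26 DNA replication genes, though few were called. Over all tested genes the median was -0.01 and 14.49% were called lower. The share of negative values over all genes was not taken. Of 25 tested members 5 fell and none rose, with a median of -0.34, and 2 fell without E14.5 HFD replicate 2 or E16.5 HFD replicate 2, and 3 without E14.5 HFD replicate 1. Ccnd1, the G1 cyclin D1, was at 106 and 86.1 CPM at E16.5, against 277 and 267 CPM at E14.5 (-1.502 ± 0.26). Kif20a, a kinesin of cell division, was at 77.9 and 69.3 CPM, against 108 and 123 CPM (-0.65 ± 0.13), and Ccne1 and Bub1b fell by 0.87 ± 0.21 and 0.67 ± 0.19 on the log2 scale. The proliferation marker Mki67 was at 647 and 493 CPM, against 685 and 691 CPM (-0.27 ± 0.19, adjusted p = 0.32), and Pcna was at 123 and 137 CPM, against 135 and 146 CPM (adjusted p = 0.76). Of 26 DNA replication genes 6 fell, Mcm2 and Mcm6 of the replicative helicase among them (-0.63 ± 0.19 and -0.59 ± 0.16), and 1 rose, Gins2 (0.75 ± 0.17). None of the 6 falls was called without E14.5 HFD replicate 2 or E16.5 HFD replicate 2, and 1 to 3 were without E14.5 HFD replicate 1, E16.5 HFD replicate 1, E16.5 control replicate 2 or 3, or E18.5 HFD replicate 1.

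Lists were also set against each other within each library, without a test. The mean log2 CPM of the excitatory neuron list minus that of the radial glia list was 0.27 and 0.57 at E16.5, against -1.003 and -1.21 at E14.5, and reached 1.45 and 1.26 at E18.5. For the pan-neuronal list the difference was 1.36 and 1.66 at E16.5, against 0.81 and 0.45 at E14.5. For intermediate progenitors it was -1.82 and -1.82 at E16.5, against -1.89 and -1.90 at E14.5. Under HFD both neuronal scores thus gained on the radial glia genes with no overlap between stages. The intermediate progenitor score differed from the radial glia score by nearly the same amount at both stages. In control the pan-neuronal difference was 1.31, 1.41 and 1.26 at E16.5, against 1.52, 0.48 and 0.67 at E14.5, which overlapped. The excitatory neuron difference in control was 0.83, 0.43 and -0.08 at E16.5, against -1.30, -1.85 and -1.18 at E14.5, which did not.

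General neuronal and synaptic genes rose with few exceptions. Of 19 pan-neuronal genes 17 rose and none fell (median 1.55). Elavl3, a neuronal RNA-binding protein, was at 195 and 186 CPM at E16.5, against 60.6 and 39.0 CPM at E14.5 (1.93 ± 0.25). Tubb3 was at 1183 and 1266 CPM, against 544 and 384 CPM (1.40 ± 0.26). Snap25, a protein of vesicle fusion, was at 32.5 and 44.0 CPM, against 7.94 and 6.05 CPM (2.45 ± 0.33). The members that were not called were the neurofilaments Nefl and Nefm, which were lower at E16.5 in both libraries (-1.25 ± 0.66 and -0.92 ± 0.61, adjusted p = 0.19 and 0.29). Cranial nerves and ganglia also make them, and the part of such tissue in these values was not tested. Of 26 synapse genes 24 rose and none fell (median 1.77), and 15 rose without E14.5 HFD replicate 2. Syn1, synapsin I, was at 87.7 and 62.5 CPM, against 23.0 and 14.48 CPM (2.01 ± 0.23), Syn2 rose by 3.43 ± 0.42, and Camk2a, the calcium-dependent kinase of excitatory synapses, was at 12.6 and 11.1 CPM, against 3.20 and 2.70 CPM (2.00 ± 0.29).

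Of 30 neurotransmitter receptor genes 28 rose and none fell, with a median of 1.97, and 15 rose without E14.5 HFD replicate 2. They covered AMPA, NMDA, kainate and metabotropic glutamate receptors and GABA receptors alike. Grik3, a kainate receptor subunit, was at 78.1 and 79.9 CPM at E16.5, against 17.1 and 11.8 CPM at E14.5 (2.45 ± 0.34). Gabrb2, a beta subunit of the GABA-A receptor, was at 10.7 and 17.0 CPM, against 4.98 and 2.70 CPM (1.86 ± 0.30). Chrna7, the alpha-7 nicotinic receptor, was at 13.9 and 13.5 CPM, against 4.51 and 3.02 CPM (1.86 ± 0.22). Excitatory and inhibitory receptors thus rose side by side. Of 27 voltage-gated channel and chloride carrier genes 18 rose and none fell, such as Cacna1a, of the P/Q-type calcium channel (1.44 ± 0.24), and Scn1a, a sodium channel (1.42 ± 0.24).

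Markers of inhibitory neurons rose in 10 of 17 cases and none fell (median 1.47), and in 6 without E14.5 HFD replicate 2. Slc32a1, the vesicular GABA transporter, was at 42.7 and 45.1 CPM at E16.5, against 12.2 and 7.02 CPM at E14.5 (2.20 ± 0.33). Erbb4, the neuregulin receptor that guides interneurons, was at 63.6 and 71.4 CPM, against 22.1 and 9.40 CPM (2.11 ± 0.36). Sst, the somatostatin precursor, rose by 1.57 ± 0.31, and Nxph1 by 2.72 ± 0.49. Of 15 progenitor genes of the ventral forebrain 3 rose and 3 fell, shares near the 16.02% and 14.49% of all genes, and with HFD libraries left out 1 to 3 rose and 0 to 3 fell (1 and 0 without E14.5 HFD replicate 2, and 1 and 0 fell without E16.5 HFD replicate 1 and 2), while 5 rose without E14.5 control replicate 1. Dlx1 was at 192 and 159 CPM, against 72.6 and 54.6 CPM (1.47 ± 0.29), while Ptch1, the Hedgehog receptor, was at 95.1 and 102 CPM, against 166 and 205 CPM (-0.91 ± 0.26). Cajal-Retzius genes, from the first-born neurons of the cortical surface, also split. Reln, the secreted layering signal reelin, was at 439 and 480 CPM, against 139 and 94.5 CPM (1.97 ± 0.42), and Ebf2 at 15.5 and 12.1 CPM, against 55.2 and 57.8 CPM (-2.03 ± 0.36).

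Glial lists went both ways. Among 14 astrocyte genes 6 rose and 2 fell. Bcan, the matrix protein brevican, was at 15.9 and 13.4 CPM at E16.5, against 0.356 and 0.108 CPM at E14.5 (5.92 ± 0.77), the largest change of the list. Aldoc, the brain form of aldolase, was at 46.8 and 53.9 CPM, against 13.2 and 15.02 CPM (1.84 ± 0.24). Gja1, connexin 43, which mesenchyme also makes, was at 69.5 and 82.7 CPM, against 214 and 279 CPM (-1.70 ± 0.22). In the oligodendrocyte lineage, Olig1 rose by 1.33 ± 0.35 and Sox8 by 1.36 ± 0.22, while Pdgfra was at 22.2 and 29.9 CPM, against 337 and 389 CPM (-3.80 ± 0.39), and Sox10, also a neural crest factor, at 0.874 and 1.02 CPM, against 21.8 and 26.4 CPM (-4.64 ± 0.64). Pdgfra and Sox10 are made by head mesenchyme and neural crest as well. Those lists, which hold Pdgfra and Sox10 respectively as members, had medians of -3.52 and -3.40. The part of such tissues in the falls of Gja1, Pdgfra and Sox10 was not tested. Gfap, the classical astrocyte filament, was at 1.12 and 0.895 CPM, against 1.42 and 3.67 CPM (adjusted p = 0.064).

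Of 17 endothelial genes 3 rose and 4 fell, near the shares of all genes called. The risers were the barrier genes Slco1c1, a thyroid hormone and anion carrier (19.2 and 27.1 CPM at E16.5, against 9.01 and 8.86 CPM at E14.5, 1.37 ± 0.35), Cldn5, the tight junction claudin (28.7 and 41.2 CPM, against 12.6 and 15.9 CPM, 1.29 ± 0.36), and Mfsd2a. None of the 3 was called without E14.5 HFD replicate 2 or without E16.5 HFD replicate 2, and 1 was without E14.5 HFD replicate 1. The falls numbered 2 without E14.5 HFD replicate 2 and 1 without E16.5 HFD replicate 1. Pan-endothelial Cdh5, VE-cadherin, was at 27.7 and 34.9 CPM, against 66.5 and 85.5 CPM (-1.28 ± 0.21). Microglial genes fell in 3 of 14 cases and rose in none, and 0 or 1 fell without E14.5 HFD replicate 2, E16.5 HFD replicate 1 or 2, E16.5 control replicate 2, or either E18.5 HFD library. Among red blood cell genes 7 of 16 fell and 1 rose, and 4 fell without E14.5 HFD replicate 2 or either E16.5 HFD library. The embryonic globins Hbe1 and Hbz were at 249 and 137 CPM, against 981 and 1508 CPM, and at 39.2 and 13.2 CPM, against 420 and 770 CPM (-2.69 ± 0.50 and -4.50 ± 0.99). The adult-type Hbb was at 335 and 267 CPM, against 40.9 and 33.3 CPM (3.02 ± 0.91, adjusted p = 0.033). Hbe1 and Hbz therefore went in the opposite direction to Hbb, the 1 member of the list that rose. The call of Hbb was not stable when single libraries were left out, with 0 members rising without E14.5 control replicate 1. Globin copies are also alike in sequence, and how shared reads were assigned is uncertain.

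Among the genes that fell, Penk, the enkephalin precursor, had the smallest p, at 3.00 and 2.43 CPM at E16.5, against 47.1 and 57.7 CPM at E14.5 (-4.26 ± 0.25, adjusted p = 5.5e-06). Dab2, an adaptor of endocytosis, was at 15.7 and 15.2 CPM, against 107 and 134 CPM (-2.96 ± 0.24). Fstl1, a secreted mesenchymal glycoprotein, was at 81.1 and 86.5 CPM, against 326 and 393 CPM (-2.10 ± 0.16). The others in this group were Twist1, Mme, Cnn2, Frem1, Ror2, Col26a1, Ppp1r3b, Sec24d, Fbln1 and the crystallins Cryaa and Crybb3. The lens protein gene Cryaa was at 0 and 0.383 CPM, against 152 and 247 CPM. Crybb3 had 0 counts in both E16.5 libraries, against 42.3 and 55.1 CPM at E14.5, at least 129-fold lower when each library is given a floor of 3 counts. Barx1, a factor of facial mesenchyme, had 0 counts at E16.5, against 25.3 and 25.3 CPM at E14.5, at least 66.7-fold lower on the same floor. Afp, the fetal serum protein, rested on a single library, with 127 and 0 CPM at E14.5 and 0 counts in both E16.5 libraries.

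Lists of tissues outside the brain fell. Cartilage and bone genes fell in 11 of 14 cases, skeletal muscle genes in 12 of 17, surface epithelium genes in 18 of 22 and neural crest and ganglion genes in 8 of 16, and the sole member of the 4 lists that rose was Th (1.57 ± 0.55). Mean log2 CPM at E16.5 was -0.33 and -0.41 for muscle and -0.69 and 0.31 for surface epithelium. Members of these lists could thus pass the filter through E14.5 alone, as for lens genes, which favours falls over rises. The muscle count rested on single libraries, with 1 called without E14.5 HFD replicate 1 and 0 without either E16.5 HFD library, and cartilage and bone had 6 without E16.5 HFD replicate 2. Runx2, the master factor of bone, was at 1.25 and 1.15 CPM at E16.5, against 54.8 and 71.4 CPM at E14.5 (-5.70 ± 0.70). Cdh1, E-cadherin of surface epithelium, was at 1.37 and 1.79 CPM, against 34.6 and 35.5 CPM (-4.46 ± 0.52). Diencephalon and midbrain genes fell in 4 of 25 cases, near the 14.49% of all genes (7 without E14.5 control replicate 3), with summed levels of 301 to 308 CPM at E16.5, against 267 to 378 CPM at E14.5, which overlapped. In control 16 of the 25 fell, at 82.1 to 323 CPM at E16.5, against 419 to 586 CPM at E14.5.

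**Figure D3:**
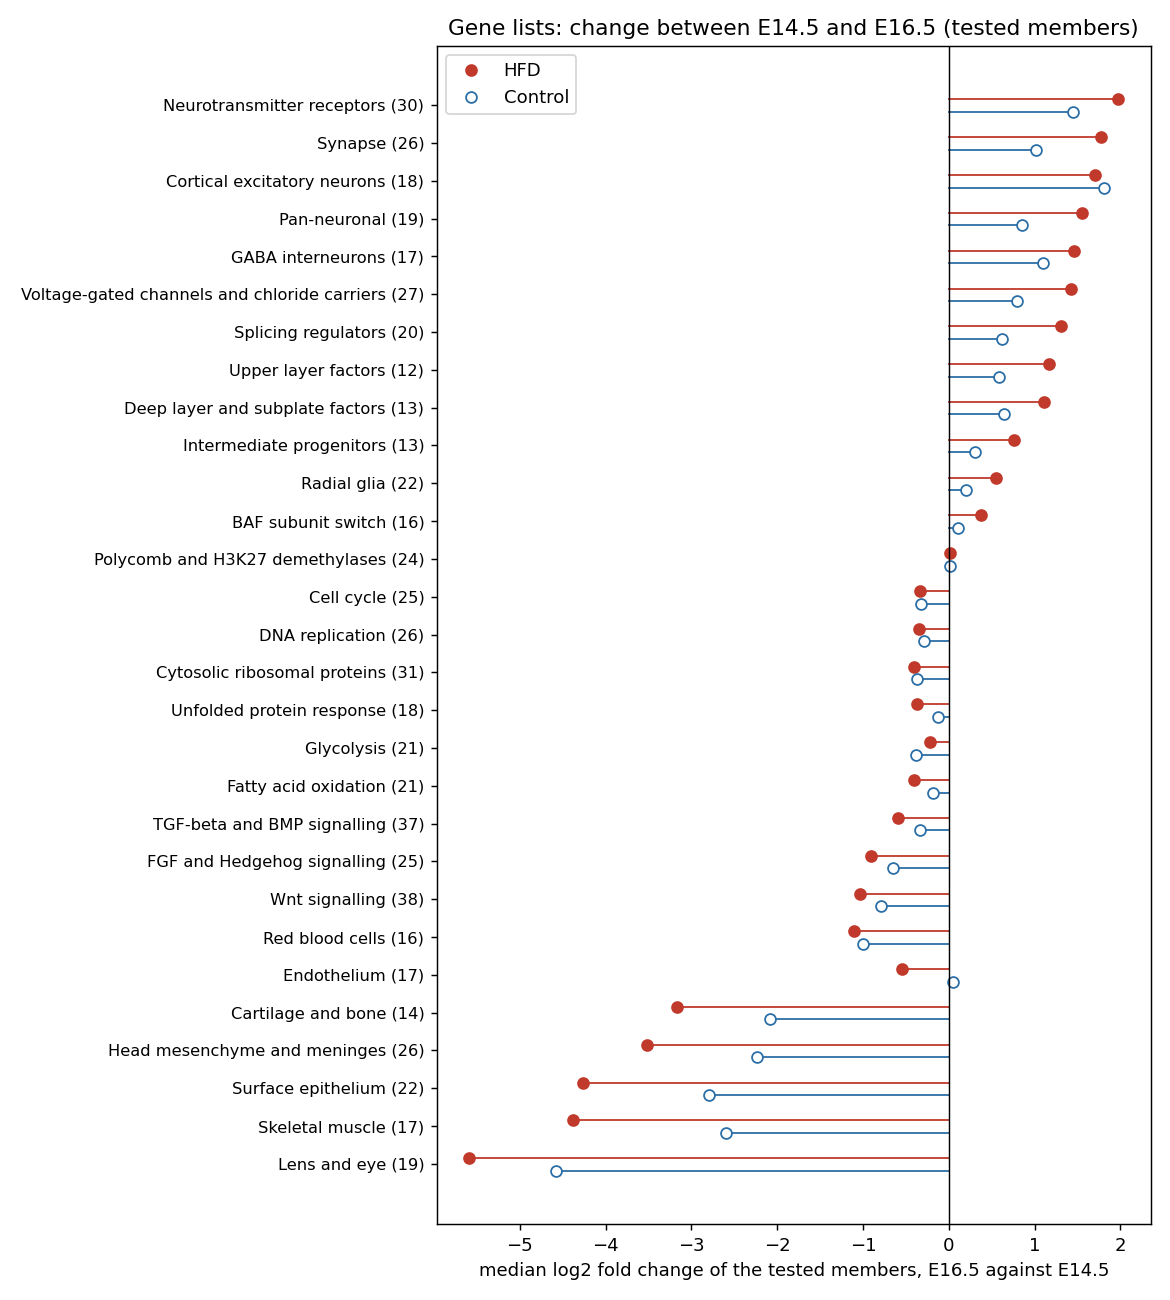
Median log2 fold change of the tested members of 29 gene lists between E14.5 and E16.5, under HFD (filled, upper) and in control (open, lower), with the number of tested members in brackets. Under HFD the neuronal lists have medians of 1.11 to 1.97, and cartilage, mesenchyme, epithelium, muscle and lens lists have medians of -3.17 to -5.59.

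Signalling families held many genes that fell. Wnt genes fell in 22 of 38 cases and rose in 3, TGF-beta and BMP genes fell in 19 of 37 and rose in 3, and FGF and Hedgehog genes fell in 14 of 25 and rose in 1. Without E14.5 HFD replicate 2 the FGF and Hedgehog falls numbered 9, and 1 Wnt and 1 TGF-beta and BMP gene rose. Wnt5a, a ligand of the non-canonical branch, was at 22.6 and 22.2 CPM at E16.5, against 88.8 and 139 CPM at E14.5 (-2.35 ± 0.24). The Wnt antagonist Dkk2 was at 1.87 and 1.53 CPM, against 37.1 and 53.0 CPM (-4.71 ± 0.46). Bmp4 was at 1.62 and 2.68 CPM, against 24.3 and 25.8 CPM (-3.53 ± 0.41), and Gli1, a readout of Hedgehog signalling, at 6.87 and 5.88 CPM, against 37.1 and 50.1 CPM (-2.77 ± 0.38). Among the exceptions were neural ligands. Wnt7a and Wnt7b, made by the neuroepithelium, were at 54.5 and 52.7 CPM, against 18.02 and 13.5 CPM (1.77 ± 0.28), and at 87.9 and 82.3 CPM, against 45.3 and 36.3 CPM (1.06 ± 0.25). How far the mesenchyme, whose list level moved with them, accounts for these falls was not tested.

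Of 30 IGF, insulin and AKT genes 7 rose, 11 fell and 12 were not called (median -0.08), and 4 rose without E14.5 HFD replicate 2. The ligands fell. Igf2 was at 84.1 and 92.7 CPM at E16.5, against 1042 and 1063 CPM at E14.5 (-3.57 ± 0.48), and Igf1 at 1.87 and 3.45 CPM, against 30.2 and 50.8 CPM (-3.92 ± 0.48). Their binding proteins Igfbp3, Igfbp4 and Igfbp5 fell, with log2 fold changes of -3.39 ± 0.43, -2.71 ± 0.36 and -2.57 ± 0.27. The head mesenchyme list fell in the same libraries, and its part in these falls was not tested. The kinase Akt1 was at 260 and 218 CPM, against 208 and 211 CPM (adjusted p = 0.23). The transcription factors Foxo1 and Foxo3, which AKT restrains, were at 11.4 and 11.1 CPM, against 27.5 and 34.9 CPM (-1.47 ± 0.24), and at 23.7 and 20.1 CPM, against 43.3 and 45.3 CPM (-1.01 ± 0.28). Igf2 and Grb10, an adaptor that dampens insulin receptor signalling and fell by 2.82 ± 0.33, are imprinted. Of 16 imprinted genes 5 fell and 3 rose, the last being Ndn, Nnat and Snrpn, of which 1 was called without E14.5 HFD replicate 2.

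Guidance molecules went both ways. Of 30 semaphorins, plexins and neuropilins 15 rose and 7 fell. Plxnc1, a semaphorin receptor, was at 80.4 and 87.8 CPM at E16.5, against 34.0 and 28.8 CPM at E14.5 (1.42 ± 0.18), Plxna3 rose by 0.94 ± 0.15 and the ligand Sema5b by 1.202 ± 0.16. The secreted Sema3d was at 1.37 and 2.30 CPM, against 38.2 and 42.3 CPM (-4.44 ± 0.47). Among ephrins, Slits and netrins and their receptors 12 rose and 10 fell of 32 (5 rose without E14.5 HFD replicate 2), with Unc5a rising and the ephrin receptors Ephb4, Ephb3 and Epha7 falling by 1.73 ± 0.21, 2.02 ± 0.28 and 0.97 ± 0.16. In the Notch pathway 7 of 23 genes rose and 6 fell, with 2 rising without E14.5 HFD replicate 2, 3 rising without E16.5 HFD replicate 1 and 3 falling without E16.5 HFD replicate 2. Notch1 rose, whereas Notch2, its ligand Jag1 and the target Hey2 fell (-0.92 ± 0.13, -0.86 ± 0.15 and -1.75 ± 0.31).

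Of 20 splicing regulators 16 rose and 3 fell (median 1.31), and 7 rose without E14.5 HFD replicate 2. Srrm4, which switches on neural microexons, was at 66.6 and 50.6 CPM at E16.5, against 20.2 and 14.7 CPM at E14.5 (1.75 ± 0.25), and Celf3 at 112 and 95.7 CPM, against 39.6 and 27.9 CPM (1.63 ± 0.24). Ptbp1, the repressor of neuronal exons in dividing cells, was at 241 and 205 CPM, against 400 and 451 CPM (-0.93 ± 0.16). Of 16 subunits of the BAF chromatin remodelling complex 6 rose, 2 fell and 8 were not called, and 3 rose without E14.5 HFD replicate 2, Actl6b no longer among them. Dpf1, a subunit of the neuronal complex, was at 97.9 and 97.4 CPM, against 31.1 and 22.8 CPM (1.86 ± 0.26), Actl6b at 52.2 and 50.7 CPM, against 16.7 and 8.43 CPM (2.04 ± 0.43), and Ss18l1 at 29.5 and 25.4 CPM, against 11.9 and 11.02 CPM (1.26 ± 0.23). Their progenitor counterparts were Phf10, which fell by 0.60 ± 0.11 on the log2 scale, and Actl6a, at 48.1 and 49.3 CPM, against 55.7 and 60.6 CPM (adjusted p = 0.43).

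The Polycomb and H3K27 demethylase genes, which write, read or erase repressive histone H3K27 methylation and some of which the study examined, moved little. Of 24 members 3 rose, 3 fell and the median was 0.01, and none was called without E14.5 HFD replicate 2. Without E16.5 HFD replicate 1, 1 rose and 1 fell, and without E16.5 HFD replicate 2, 1 fell. Ezh2, the methyltransferase, was at 143 and 156 CPM at E16.5, against 153 and 149 CPM at E14.5 (-0.02 ± 0.16, adjusted p = 0.96), and its partner Suz12 at 49.5 and 60.1 CPM, against 54.7 and 54.3 CPM (0.01 ± 0.23, adjusted p = 0.99). Both overlapped between the stages. Cbx2 was at 89.3 and 69.3 CPM, against 123 and 141 CPM (-0.73 ± 0.16), and Bmi1 at 43.5 and 40.6 CPM, against 29.0 and 24.3 CPM (0.66 ± 0.15). Both are reader or ligase subunits of the other Polycomb complex, which does not hold Ezh2 and Suz12. The de novo DNA methyltransferase Dnmt3a was at 196 and 191 CPM, against 288 and 275 CPM (-0.54 ± 0.13). Of 13 AMPK and O-GlcNAc genes 3 rose, namely the AMPK subunits Prkaa2 and Prkag2 (1.35 ± 0.23 and 1.13 ± 0.21) and the upstream kinase Stk11 (0.37 ± 0.12), while the other catalytic subunit, Prkaa1, was at 26.6 and 37.8 CPM, against 35.1 and 37.7 CPM (adjusted p = 0.51).

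Of 21 glycolysis genes 5 rose and 5 fell, and 1 and 1 without E14.5 HFD replicate 2. With other libraries left out, 3 to 5 rose and 1 to 8 fell, with 1 falling without E16.5 HFD replicate 2, 2 without E14.5 HFD replicate 1 and 8 without E14.5 control replicate 2. Among lactate dehydrogenases Ldhb was at 114 and 113 CPM at E16.5, against 82.6 and 81.5 CPM at E14.5 (0.47 ± 0.10), and Ldha at 217 and 210 CPM, against 337 and 356 CPM (-0.70 ± 0.18). Pgam1, a mutase of the lower pathway, fell by 0.87 ± 0.16 on the log2 scale. Of 21 fatty acid oxidation genes 6 fell and 2 rose, and 2 fell without E14.5 HFD replicate 2 or E16.5 HFD replicate 1 and 3 without E14.5 HFD replicate 1. Hadh and Acadl, dehydrogenases of the beta-oxidation cycle, were at 12.9 and 13.8 CPM, against 30.9 and 32.1 CPM (-1.24 ± 0.22), and at 11.1 and 11.2 CPM, against 22.5 and 28.2 CPM (-1.18 ± 0.19). Of 15 fatty acid synthesis genes 2 fell, the desaturase Scd (-1.17 ± 0.25) and Acacb (-0.84 ± 0.23), and of 22 cholesterol genes 1 rose and 2 fell (4 rose without E16.5 HFD replicate 1). None of the 13 mitochondrial genome transcripts was called, 8 were lower without E16.5 HFD replicate 1, and E16.5 HFD replicate 2 held 553 CPM of Mt-nd1 against 1678 CPM in replicate 1.

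Of 31 cytosolic ribosomal protein genes 15 fell and none rose (median -0.41), and 6 to 9 fell without any 1 of the 4 HFD libraries. An example was Rpl4, at 449 and 480 CPM at E16.5, against 656 and 666 CPM at E14.5 (-0.51 ± 0.11). In the unfolded protein response list 7 of 18 fell and 1 rose. Hspa5, the endoplasmic reticulum chaperone BiP, was at 209 and 197 CPM, against 452 and 472 CPM (-1.19 ± 0.14), and Hsp90b1 at 290 and 279 CPM, against 602 and 640 CPM (-1.13 ± 0.15). Pdia4 changed by -1.199 ± 0.15 and Calr by -0.999 ± 0.15 on the log2 scale. All 4 serve the folding of secreted proteins, and the collagen gene Col3a1 stood at 217 and 228 CPM at E16.5, against 1632 and 1545 CPM at E14.5, in the same libraries. Whether the secretory load of the connective tissue accounts for this was not tested.

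The same stages were then set against each other in control, to ask which of these changes depended on the diet. In control 1881 genes (12.25%) were higher and 1708 (11.12%) lower at E16.5. The HFD and control contrasts share no library, though they share the estimate of spread. Of the 2459 genes that rose under HFD, 1569 rose in control, which is 63.8% of the HFD genes and 83.4% of the 1881 control genes, and 4 fell. Of the 2225 genes that fell under HFD, 1326 fell in control, 59.6% of the HFD genes and 77.6% of the 1708 control genes, and 1 rose. Across all tested genes the log2 fold changes correlated with Pearson's r of 0.76, as a description over genes that are not independent. The median log2 fold change of the genes called higher under HFD was 1.09 under HFD and 0.67 in control, and that of the genes called lower was -1.32 and -0.73. A smaller change in the contrast that was not used for the choice is what selection alone gives, so these medians do not show a larger change under HFD.

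**Figure D4:**
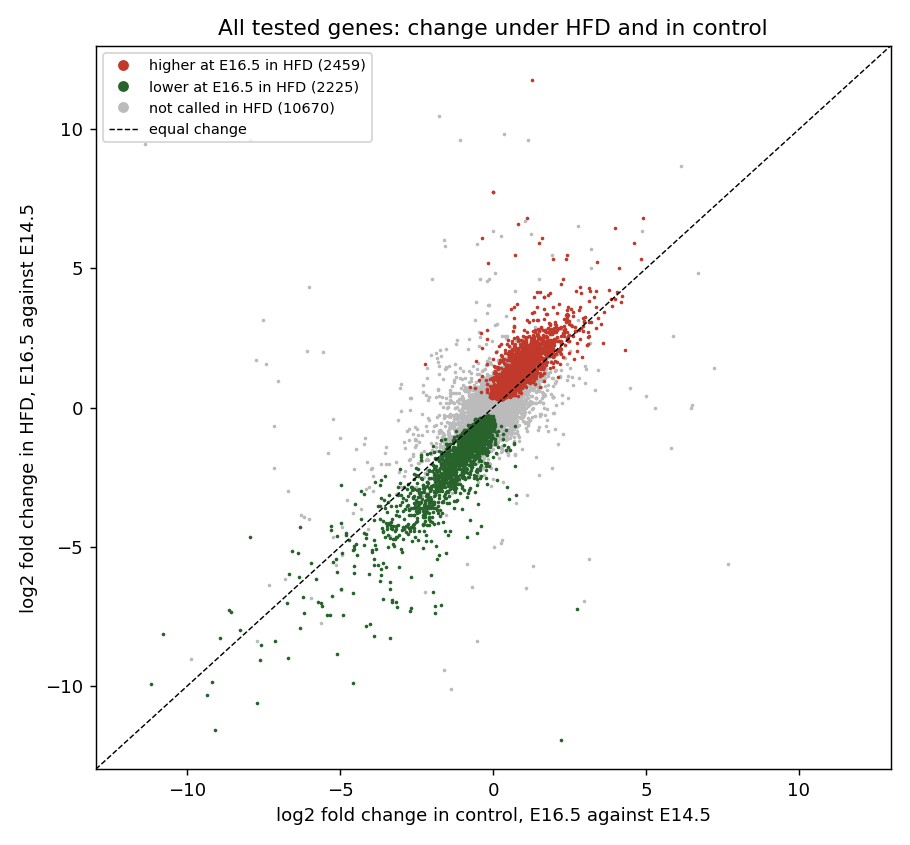
Log2 fold change between E14.5 and E16.5 of each of 15354 tested genes under HFD (vertical) and in control (horizontal), with the line of equal change dashed. The 2459 genes called higher and the 2225 called lower under HFD lie mostly in the same direction in control.

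Tested directly, the change differed between the diets for 0 genes higher (0%) and 0 genes lower (0%) by edgeR at an adjusted p under 0.05, with 572 and 642 genes at an unadjusted p under 0.05. DESeq2 called 20 and 20, and without E14.5 control replicate 1 edgeR called 6 and 43. Of the 10 genes named next, 8 passed with DESeq2 (all but Th, which it gave no adjusted p, and C1r) and 6 without that library. The genes nearest to the threshold are named as not past it. Rfx4, a factor of the developing brain and of cilia, was at 16.6 and 17.5 CPM in E16.5 HFD, against 12.3 and 8.32 CPM in E14.5 HFD, a log2 fold change of 0.73 ± 0.19, while control had 13.6, 13.9 and 16.6 CPM at E16.5, against 24.5, 26.7 and 24.4 CPM at E14.5 (-0.77 ± 0.15). The difference of these changes was 1.499 ± 0.25 (adjusted p = 0.25). The 2 diets moved in opposite directions, with both HFD libraries below all control libraries at E14.5. Ptprn2, of neuroendocrine vesicles, changed by 1.33 ± 0.18 under HFD and by 0.06 ± 0.14 in control (difference 1.27 ± 0.23, adjusted p = 0.27). Th, tyrosine hydroxylase, was low throughout, at 5.62 and 3.20 CPM in E16.5 HFD, against 1.66 and 1.30 CPM in E14.5 HFD, and at 0.929, 0.689 and 2.30 CPM in E16.5 control, against 6.57, 7.63 and 5.09 CPM in E14.5 control (difference 3.79 ± 0.71, adjusted p = 0.28). Ankrd6 and Rhpn1 completed the 5, with differences of 0.96 ± 0.18 and 1.29 ± 0.24.

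On the negative side the 5 genes included 3 of the extracellular matrix. Dcn, the proteoglycan decorin, changed by -2.47 ± 0.25 under HFD and -0.56 ± 0.19 in control (difference -1.91 ± 0.31, adjusted p = 0.25), and Bgn, biglycan, by -2.25 ± 0.21 and -0.73 ± 0.17 (difference -1.52 ± 0.27). The basement membrane collagen Col15a1, the adaptor Dab2 and the complement protease C1r had differences of -1.71 ± 0.28, -1.72 ± 0.29 and -1.53 ± 0.30. For Dcn the libraries read 4.87 and 7.67 CPM in E16.5 HFD, against 34.5 and 35.0 CPM in E14.5 HFD, and 16.2, 15.4 and 11.4 CPM in E16.5 control, against 19.5, 24.4 and 18.8 CPM in E14.5 control. It was thus both highest at E14.5 and lowest at E16.5 under HFD. The summed head mesenchyme list stood at 710 to 792 CPM in E16.5 HFD, against 5430 to 5865 CPM in E14.5 HFD, and 992 to 1408 CPM in E16.5 control, against 2331 to 6735 CPM in E14.5 control, so that the diets overlapped at E14.5 and not at E16.5. Its part in the differences between diets was not tested.

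By list, the medians under HFD were the higher ones for receptors (1.97 under HFD, 1.45 in control), synapse genes (1.77 and 1.01) and pan-neuronal genes (1.55 and 0.85), but not for excitatory neuron genes (1.70 and 1.81). Diencephalon and midbrain genes had medians of -0.68 under HFD and -2.55 in control, with a median difference of 1.47, Cajal-Retzius genes had medians of 0.53 and -0.52, and head mesenchyme genes of -3.52 and -2.23. By edgeR no member of any list passed the test of the difference. With DESeq2 6 members passed, 3 in each direction, and without E14.5 control replicate 1 edgeR called 7, all lower. Dlx5, a ventral forebrain factor named in the study, changed by 0.18 ± 0.18 under HFD and 1.02 ± 0.15 in control (difference -0.84 ± 0.23, adjusted p = 0.44). Of all 25 genes named in the study, a list chosen by its authors on these samples, 3 rose and 9 fell under HFD, and 1 rose without E14.5 HFD replicate 2.

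The levels of the called genes were followed on to E18.5 without a further test. Both E18.5 HFD libraries lay above both E16.5 HFD libraries for 1487 of the 2459 risers (60.5%), against 27.8% of all tested genes, and below them for 271 (11.02%), against 27.1%. For the 2225 genes that fell, both E18.5 libraries lay below both E16.5 libraries for 723 (32.5%) and above them for 542 (24.4%), against the same 27.1% and 27.8% of all genes. The E16.5 and E14.5 libraries had been used to choose these genes. Both E18.5 libraries stayed on the same side of both E14.5 libraries for 97.7% of the risers and 97.3% of the genes that fell. The choice by distance from those E14.5 libraries favours this. The share over all genes was not taken, so nothing is drawn from it. Grin2b was at 8.77 and 3.46 CPM at E14.5, 96.9 and 127 CPM at E16.5 and 277 and 264 CPM at E18.5, a steady climb. Neurod6 was at 16.4 and 7.13 CPM, 163 and 161 CPM, and 230 and 182 CPM on the same days, most of its gain falling before E16.5. Twist1 was at 93.4 and 108 CPM, 1.499 and 1.66 CPM, and 1.70 and 1.37 CPM, so that it had reached its low level by E16.5. Ccnd1 kept falling, with 277 and 267 CPM, 106 and 86.1 CPM, and 48.8 and 51.0 CPM.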

How the data were processed

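The table the authors deposited holds estimated counts (expected counts of reads per gene, as whole numbers and not normalised) for 32623 rat Ensembl genes and 15 libraries. The study's methods state alignment to rn6 with Bowtie2 and counting with RSEM, whereas the submitters' processing notes name HTSeq. No source says whether counting used strand. Reads shared by gene copies or by overlapping antisense genes are therefore uncertain, and none of the 101 genes (of 13789 with over 200 counts) whose counts equalled those of another gene in all libraries is named.

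Levels are CPM after TMM scaling. Differences were tested by quasi-likelihood in edgeR 4.0.16 under R 4.3.3, robustly, each combination of stage and diet having its own mean, in 14 libraries. The filter was filterByExpr, p-values were Benjamini-Hochberg adjusted over 15354 genes, and the threshold was 0.05. The library labelled E18.5 control replicate 1 was left out, as its levels of Neurod6 and Twist1 (5.99 and 74.0 CPM) lay among those of the E14.5 libraries and not of the other E18.5 libraries. SE is the absolute log2 fold change over the square root of F. With 8 residual degrees of freedom from litters of all groups, p-values measure the spread between libraries. Log2 CPM for list means had a prior count of 2. Total counts ran from 5598195 to 9529978.

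The lists (54, with 974 distinct tested genes), their members and the genes to name were chosen with earlier results of these data known. Named were 14 genes per direction by smallest p (mean of at least 5 CPM), 8 per direction by largest change (at least 20 CPM), up to 4 of each list, 5 per direction for the difference between diets, and genes named in the study. Col3a1, Nefl, Nefm, Hbb, Cldn5, Mfsd2a, Ptbp1, Actl6a, Actl6b, Wnt7a, Wnt7b, Ndn, Nnat and Ntf3 were added after their values were seen, as were the promoter motifs. Some genes that the rule names are not reported here. Where a group had 0 counts, 3 counts were put in each of its libraries as the floor, which covers counting error only. The script was tested on simulated data. The alternatives comprised other scaling factors (RLE, upper quartile), other tests (DESeq2 1.42.0, limma-voom with limma 3.58.1), other filters, a replicate block, other sets of libraries, a head mesenchyme covariate and leaving out each library.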

Additional observations from a re-analysis of the deposited data

How the results depend on the processing

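With RLE or upper-quartile factors, DESeq2, limma-voom, either other filter on low counts, only the 10 libraries of E14.5 and E16.5, or only the 4 HFD libraries, the counts of genes higher and lower under HFD stayed within 1.5 times those reported. The replicate number as a block gave 2678 and 2483 under HFD and 2159 and 1946 in control. Same-numbered HFD libraries did not deviate together (r = -0.038 across genes, 2 pairs). A correlation from 2 pairs cannot tell whether same-numbered libraries shared a batch. With all 15 libraries the counts were 1561 and 1024 under HFD and 0 and 0 in control. With the head mesenchyme score as a covariate they were 0 and 0 under HFD and 0 and 1 in control, and the median of all genes was 0.12. The cause was not tested. DESeq2 called 20 and 20 for the difference between diets. Leaving out each of the 14 libraries in turn gave 1070 to 2686 higher and 1186 to 2373 lower genes under HFD, 1215 to 2080 and 978 to 2013 in control, and 0 to 6 and 0 to 43 for the difference.

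Of 177 genes named with an HFD value, 176 kept their sign and side of the threshold with DESeq2, 176 with limma-voom, 143 with all 15 libraries and 145 without E14.5 HFD replicate 2. The calls lost without that library were those of Actl6b, Barx1, Bmi1, Bub1b, Cbx2, Ccne1, Cldn5, Foxo3, Gins2, Grin2b, Hbb, Hes6, Ldha, Ldhb, Mcm2, Mcm6, Mfsd2a, Ndn, Neurod2, Neurod6, Nnat, Olig1, Ppp1r1b, Ptch1, Reln, Rfx4, Rhpn1, Slco1c1, Stk11, Tbr1, Th and Wnt7b. Outside the covariate fit few signs turned. Ezh2 was at 0.052 with no filter, 0.017 with at least 10 counts in every library, 0.050 with all 15 libraries and 0.0019 in the 4 HFD libraries. Suz12 was at -0.043 with upper-quartile factors and -0.0020 with the block. With libraries left out, Dlx5 ran from -0.076 to 0.45, Ezh2 ran from -0.082 to 0.13, Mt-nd1 ran from -1.37 to 0.16, Pcna ran from -0.19 to 0.044, Prkaa1 ran from -0.45 to 0.13, Suz12 ran from -0.14 to 0.22, and Ptprn2 in control from -0.049 to 0.19. With the covariate 54 of the HFD log2 fold changes turned. The score separated the HFD stages as fully as the labels did, and 0 genes were called higher or lower in that fit. The turned values below therefore do not measure the stage change, and nothing is drawn from their signs. Those then below 0 were Bcl11b -0.33, Bmi1 -0.40, Camk2a -1.25, Dlx1 -1.70, Dlx5 -0.95, Gins2 -0.13, Grik3 -0.10, Hbb -0.33, Kcng1 -0.40, Ldhb -0.28, Lmo3 -0.42 and Mfng -0.81. Also below 0 were Ndn -0.48, Neurod2 -2.09, Neurod6 -2.45, Nnat -0.39, Pax6 -4.47, Pou3f3 -0.12, Ppp1r1b -2.05, Prkag2 -0.60, Ptprz1 -2.01, Reln -1.41, Slc17a7 -2.23 and Slco1c1 -0.67. The others below 0 were Suz12 -2.51, Tbr1 -4.13, Wnt7a -1.66, Wnt7b -0.14 and Ntrk3 -0.65. Those then above 0 were Barx1 3.43, Calr 0.18, Ccn2 0.13, Col3a1 1.71, Dnmt3a 0.22, Ebf2 1.09, Epha7 0.63, Ephb3 1.16, Ephb4 0.35, Foxo1 1.49, Foxo3 1.59 and Gfap 1.51. Also above 0 were Hsp90b1 0.16, Igf2 2.21, Igfbp3 1.87, Igfbp4 1.60, Igfbp5 0.11, Nefl 5.73, Nefm 5.84, Notch2 0.23, Pdgfra 0.94, Pdia4 0.14, Sema3d 0.73 and Sox10 2.17. The last above 0 was Klf4 at 0.31. In control Ptprn2 turned to -0.20 and Bgn to 0.48. Depth limits the precision of genes near 1 CPM.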

Other observations

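Several gene groups outside the comparisons above were counted for HFD in the same fit, where 16.02% of all genes were called higher and 14.49% lower. Of 8 tested neurotrophin genes 3 rose and 5 fell (median -1.81). Single HFD libraries decided these counts, with 1 rising and 3 falling without E14.5 HFD replicate 2, 1 and 2 without E16.5 HFD replicate 2, and 3 and 2 without E16.5 HFD replicate 1. Ntrk3, the receptor of neurotrophin 3, was at 73.2 and 77.1 CPM at E16.5, against 24.2 and 18.9 CPM at E14.5 (log2 fold change 1.80 ± 0.35). The ligand Ntf3 was at 0.749 and 0.511 CPM at E16.5, against 6.28 and 7.67 CPM at E14.5 (-3.43 ± 0.70). The stages did not overlap for either gene. The same held for 33.2% of all tested genes in the direction of Ntrk3 and 34.8% in that of Ntf3.

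Of 13 tested immediate early genes 3 rose and 2 fell (median 0.27). Btg2, given above with the intermediate progenitors, was among those that rose, and the values below are of the 2 that fell. The number that rose was 1 without E14.5 HFD replicate 2, E16.5 control replicate 1, either E16.5 HFD library or any of the 4 E18.5 libraries. Klf4, a zinc finger factor, was at 2.62 and 3.45 CPM at E16.5, against 16.4 and 14.4 CPM at E14.5 (-2.33 ± 0.38), and Egr1, an early response gene of neurons, at 2.498 and 2.56 CPM at E16.5, against 7.71 and 7.56 CPM at E14.5 (-1.59 ± 0.32). Of 10 tested hypoxia genes 1 rose and 1 fell (median -0.16). P4ha1, a collagen prolyl hydroxylase, was at 33.4 and 30.3 CPM at E16.5, against 63.5 and 66.5 CPM at E14.5 (-1.03 ± 0.11), and Egln3, a prolyl hydroxylase of the oxygen response, at 16.1 and 14.6 CPM at E16.5, against 7.11 and 7.56 CPM at E14.5 (1.06 ± 0.24). Twist1, which marks head mesenchyme, fell in the same libraries (1.499 and 1.66 CPM at E16.5, against 93.4 and 108 CPM at E14.5). The part of that tissue in these rises and falls was not tested.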
